A study of Neurospora crassa with 10 samples.

Results

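The regions described here are the gene-free intervals of at least 10 kb on the 7 linkage groups (LGs, the Neurospora chromosomes) of the corrected *Neurospora crassa* assembly nc14. Each gene ran from the lowest start to the highest end of its records, overlapping genes were merged, and each interval between merged genes was kept if it held 10000 bp or more, with chromosome ends left out. Of 8706 intervals between genes, 214 (2.46%) were selected on this measured length, and 8492 were shorter. Their length and their lack of genes are what the rule used and are therefore a description, not a finding. The strand, structure, numbering and position of the genes beside them were not used by the rule.

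The series holds 10 in situ Hi-C datasets from germinated conidia of 2 wild type strains, N150 and N3752. Chromatin was cut with DpnII (N150 libraries of 8, 15 and 23 PCR cycles and an N3752 library of 8), with MseI (N150 and N3752, 8 cycles each) or with both enzymes (N150 and N3752), and DpnII and MseI replicates were also merged into 1 dataset each. The file analysed here is 1 gene annotation of nc14, made for all datasets together, with 81158 records of 9866 genes. It gives positions in bp and no value per library, so no depth, replicate error or comparison between enzymes or strains applies, and each number below is a census of 1 annotation.

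In Neurospora, constitutive heterochromatin forms on AT-rich, gene-poor DNA, much of it old transposon sequence mutated by repeat-induced point mutation (RIP), a process of the sexual cycle that changes C to T in duplicated DNA. The histone methyltransferase DIM-5 marks this DNA with trimethylation of histone H3 lysine 9, and HP1 binds the mark and recruits the DNA methyltransferase DIM-2. The centromeres are long AT-rich regions of this kind that also carry the centromeric histone CenH3, and shorter heterochromatic regions lie dispersed along the arms and at the telomeres. Long gene-free intervals are therefore candidates for heterochromatin. The annotation holds no base composition, histone mark or contact, so that label was not checked, and the regions are called by their rule throughout.

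The 214 intervals held 6.84 Mb, which is 16.7% of the 40.9 Mb between the first and the last gene of the LGs. They made up 2.46% of the intervals between genes and 38.5% of the intergenic length, while the 8492 shorter intervals held 10.9 Mb. Their median length was 19.2 kb, with quartiles of 13.4 and 31.5 kb, against a median of 776 bp over all 8706 intervals. The shortest had 10085 bp and the longest 347790 bp. A minority of long intervals thus carried most of the length: 115 intervals of 10 to 20 kb held 23.9% of it, 75 of 20 to 50 kb held 32.8%, 14 of 50 to 100 kb held 12.4%, 5 of 100 to 200 kb held 9.73% and 5 of 200 kb or more held 21.2%. Both classes under 50 kb occurred on each of the 7 LGs.

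**Figure D1:**
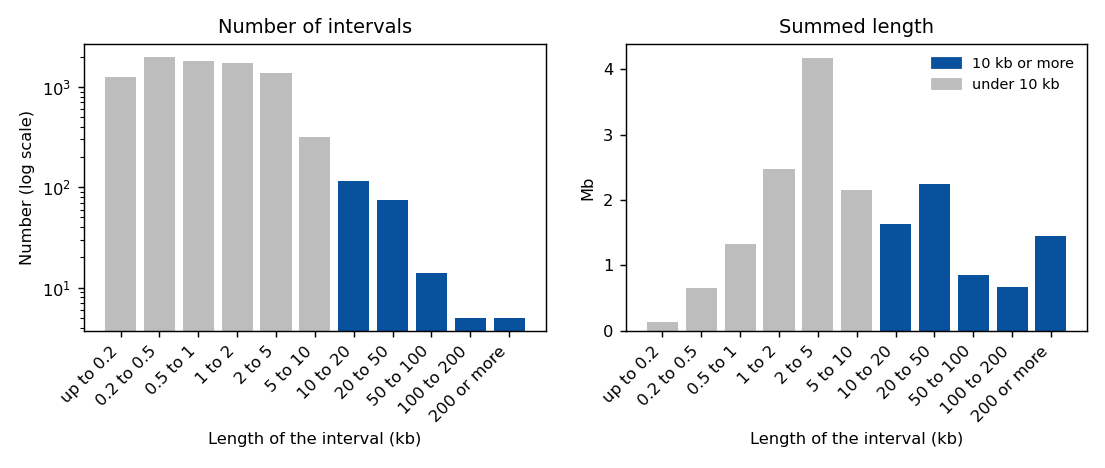
Number (left, log scale) and summed length in Mb (right) of all 8706 intervals between genes by length class in kb, with intervals of 10 kb or more in blue and shorter ones in gray. Beyond the shortest class numbers fell toward 5 intervals of 200 kb or more, and the summed length of those 5 was 1.45 Mb, against 0.136 Mb for the 1242 intervals under 0.2 kb.

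The limit of 10000 bp did not fall at a natural step in the lengths. The 5 members just above it had 10085 bp (LG V, between NCU00999 and NCU01000), 10148 bp (LG I, NCU02959 and NCU02957), 10232 bp (LG II, NCU03444 and NCU03441), 10295 bp (LG II, NCU05370 and NCU05373) and 10374 bp (LG I, NCU00509 and NCU00506). The 5 intervals just below it had 9973 bp (LG V, NCU03583 and NCU03584), 9965 bp (LG VI, NCU05066 and NCU05064), 9897 bp (LG I, NCU08081 and NCU08083), 9783 bp (LG III, NCU06424 and NCU06425) and 9667 bp (LG V, NCU07788 and NCU07787). The study looked closely at heterochromatic regions on the right arm of LG II, where the rule took 16 intervals, among them 111513, 51310 and 14996 bp. In 1 stretch of that arm (4090014 to 4263001) it took the 32411 bp between NCU08445 and NCU09335 and the 21545 bp between NCU09358 and NCU09777. It left out intervals of 9508, 7726, 4963, 4784 and 4616 bp near them. That stretch was chosen after its values were seen.

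Each LG carried such intervals at a like density, between 4.56 per Mb on LG III and 5.67 per Mb on LG VII. LG I had 56 intervals with 1754473 bp (17.6% of its span) and LG V had 37 with 1022367 bp. LG IV had 29 with 932711 bp (15.7%), and LG II had 25 with 848800 bp (19.0%). LG III and LG VII had 24 each, with 792046 bp on LG III and 828232 bp (19.6%) on LG VII, and LG VI had 19 with 661902 bp (15.9%). LG III and LG V had the lowest share of their span in such intervals. What differed more among LGs was how far the longest interval stood from the second. On LG V, LG VI and LG VII the longest was 7.47, 9.03 and 8.52 times the length of the next, whereas on LG I, LG II, LG III and LG IV this ratio was 1.68, 1.9, 1.16 and 1.28.

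On LG I the longest interval, of 257275 bp, lay apart from the second, and on LG II the second, of 111513 bp, lay apart from the longest, while on LG III and LG IV a single gene stood between the longest and the second. When intervals separated by at most 2 genes were joined, the 214 intervals formed 197 blocks, of which 182 held 1 interval, 14 held 2 and 1 held 4. The longest block of each LG, its main gene-poor block, spanned 214.1 to 347.8 kb. On LG VII the main block was 1 interval (2135114 to 2482903 of nc14, between NCU02450 and NCU02438), as on LG V (1281889 to 1603063, 321.2 kb, between NCU09667 and NCU16947) and LG VI (2769627 to 3080311, 310.7 kb, between NCU03846 and pks-1, a polyketide synthase gene).

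On the other 4 LGs, genes with 300 to 2103 bp of coding sequence divided it. The median of protein-coding genes not beside an interval was 1266 bp. NCU05742 (306 bp of coding sequence in 4 exons) stood between 130263 and 151473 bp on LG III, in a block of 282.6 kb with NCU10596 and NCU07815 at its edges. NCU16528 (2103 bp) stood between 59401 and 211497 bp on LG II, in a block of 273.1 kb between gh61-6, named for a family of enzymes that cleave cellulose, and NCU05338. NCU04974 (378 bp) stood between 119587 and 93783 bp on LG IV, in a block of 214.1 kb between NCU04963 and NCU04983. The LG I block of 272.7 kb (3720904 to 3993587) held 4 intervals and the genes NCU08578, NCU08579, NCU08585 and NCU09892, of which NCU08585, with 300 bp of coding sequence, stood between 84827 and 152736 bp and NCU09892 between 152736 and 12205 bp. The study placed an unanchored supercontig within the LG I centromere, at a position near the left edge of the LG I block, and reports that this extended the centromere. Whether these 7 blocks match the centromeres was not tested here. Together they held 13 of the 214 intervals and 29.4% of the gene-free length, 2.01 Mb.

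The remaining 201 intervals held 4.83 Mb, 11.8% of the span of the LGs. The longest of them, 257275 bp on LG I (6387853 to 6645127), lay between NCU09874 and NCU00995 and was longer than any single interval of the LG I main block. When it built nc14, the study placed unanchored supercontigs inside a heterochromatic region of LG I at these positions, and reports that this enlarged the region. How much of the 257275 bp is placed sequence was not measured here. The next was 111513 bp on LG II (3601131 to 3712643, between NCU08447 and NCU08696). Of the 24 intervals of 50 kb or more, 11 lay in main blocks and 13 outside them, and none of those 13 was on LG V, LG VI or LG VII.

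**Figure D2:**
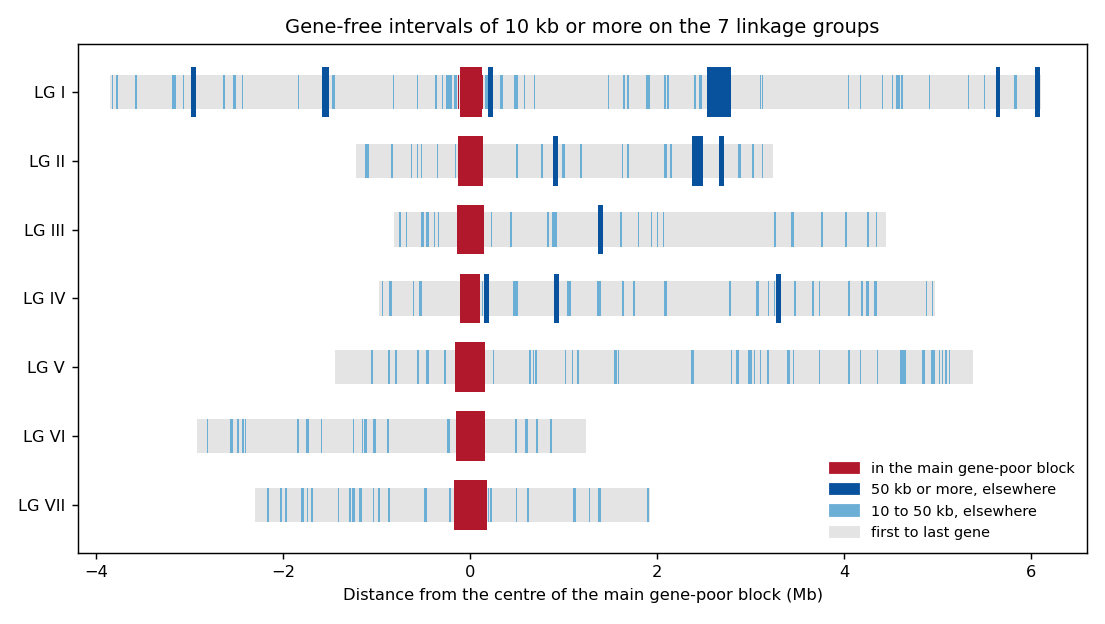
The 214 intervals drawn to scale along each LG as distance in Mb from the centre of its main gene-poor block, with members of that block in red, other intervals of 50 kb or more in dark blue and those of 10 to 50 kb in light blue; intervals of 50 kb or more are drawn taller and gray spans the first to the last gene. Outside the main blocks, intervals of 50 kb or more appear on LG I, LG II, LG III and LG IV, and the widest is the 257.3 kb interval of LG I.

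Between neighboring intervals lay 207 gene-bearing stretches with a median of 96.0 kb (quartiles 36.5 and 223 kb) and 29 genes (quartiles 11 and 61). Spacing was uneven, from 303 bp to 1179 kb. In 15 stretches there was a single gene, in 27 there were at most 5, and 10 reached 500 kb or more. The longest stretch free of such intervals was on LG III (2892499 to 4071377) and held 325 genes, followed by 902.6 kb with 262 genes on LG I. Median spacing per LG ranged from 74.9 kb on LG V to 152 kb on LG III. The 15 genes that alone separated a pair of intervals had a median coding length of 1467 bp, and 2 of them had a single exon. Besides the genes of the main blocks, those beside an interval of at least 50 kb were NCU10073 on LG I (30528 and 52470 bp) and fi on LG IV (13355 and 55130 bp).

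Place along the arm was scored from 0 at the edge of the main block to 1 at the outermost gene. Counted in 5 equal parts of the arm from the main block outwards, 41, 39, 35, 38 and 48 of the 201 intervals fell in each, so that the outermost part held 23.9% and the middle one 17.4%. Shares of length were 19.5, 18.7, 20.3, 18.1 and 23.4% in the same order. Median lengths in these parts were 16.9, 18.4, 19.6, 18.3 and 19.0 kb. Within 500 kb of a main block there were 43 intervals, 6.14 per Mb, against 4.96 per Mb in the rest of the arms, and 12 of these 43 were on LG I. Within 300 kb of the outermost genes there were 23, which is 5.48 per Mb. Density therefore varied little with position in these pooled counts. Single arms ranged more widely, though on few intervals. The short left arm of LG III had 8.91 per Mb (6 intervals), covering 19.2% of it, and the right arm of LG VI had 3.7 per Mb (4 intervals), covering 6.86%. Pooled and single-arm densities are therefore not compared on like numbers. Intervals at the ends beyond the outermost gene were left out by the rule, so the sequence next to the telomeres is not counted. The outermost interval lay 12.6 kb from the last gene on the right arm of LG I and 383 kb from the first gene on the left arm of LG V, where the ribosomal RNA array lies between.

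**Figure D3:**
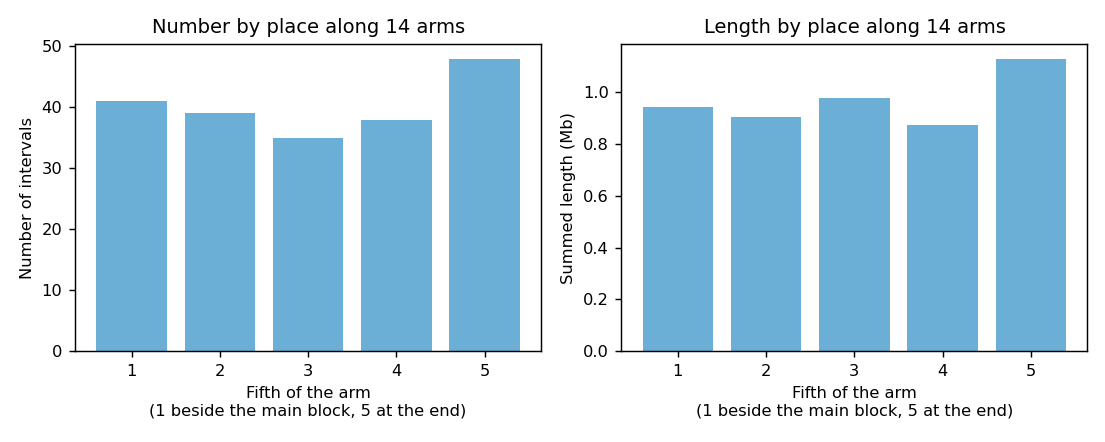
Number (left) and summed length in Mb (right) of the 201 intervals outside the main blocks by place along the chromosome arm, cut into 5 equal parts over 14 arms, with 1 beside the main block and 5 at the arm end. Counts were 41, 39, 35, 38 and 48, and each part held at least 17.4% of the intervals.

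Strand was not used by the rule. A pair of genes beside an interval is divergent where both 5′ ends face it, convergent where both 3′ ends do, and tandem where 1 of each does. Of the 214 intervals, 73 (34.1%) were divergent, 115 (53.7%) tandem and 26 (12.1%) convergent. For the 8492 shorter intervals these shares were 29.4, 50.8 and 19.8%, and for the 3443 of 1 to 10 kb, the nearest in length, they were 30.3, 52.8 and 16.9%. Gene starts faced the long intervals at 261 of 428 ends (61.0%), against 56.7% of the ends of intervals of 1 to 10 kb. Divergent intervals outnumbered convergent ones 2.81 to 1 among the 214 and 1.79 to 1 at 1 to 10 kb. Neither excess held at 50 kb or more, with gene starts at 26 of 48 ends (54.2%) and a ratio of 1.67 to 1. On LG II, LG IV and LG VI the share of gene starts was below that at 1 to 10 kb on the same LG. It was 48.0 against 55.9%, 58.6 against 59.2% and 39.5 against 59.0%. On the remaining LGs it was above.

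The lower convergent share held across size classes, with 11.3% at 10 to 20 kb, 13.3% at 20 to 50 kb and 12.5% at 50 kb or more. It did not hold on every LG. On LG V 1 of 37 intervals was convergent (2.7%) and 18 were divergent, against 17.5% convergent at 1 to 10 kb on the same LG. LG IV had 6.9% against 15.4%, LG III 8.33% against 19.2%, LG I 10.7% against 18.1% and LG VII 12.5% against 12.9%. On LG II and LG VI the order was turned, with 24.0% against 19.5% and 31.6% against 13.6%. Numbers per LG are small (19 intervals on LG VI), these shares come from 1 genome, and no test was applied. The 24 intervals of 50 kb or more also had the lowest divergent share of the long classes, 20.8%, with 16 of 24 tandem.

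**Figure D4:**
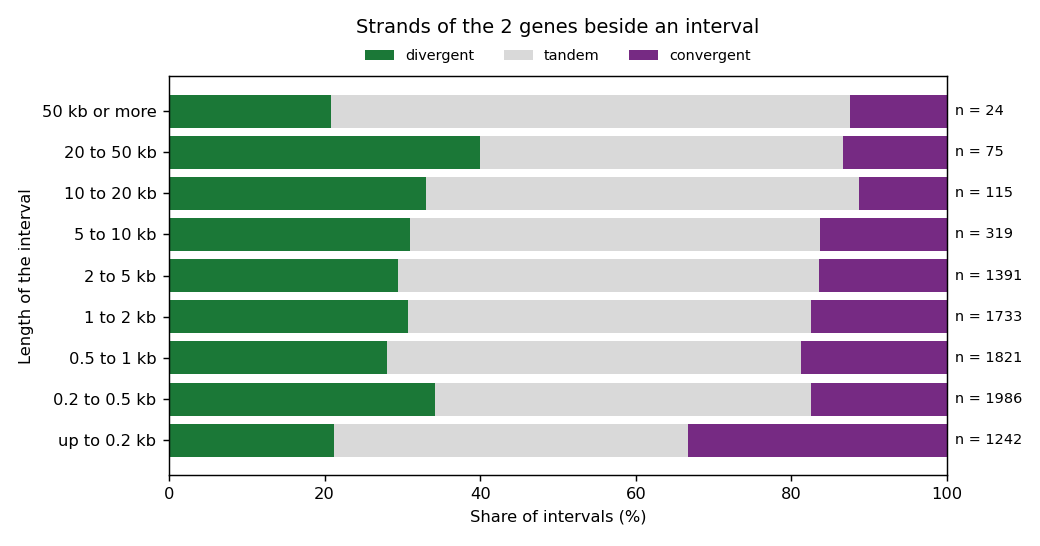
Share in percent of divergent, tandem and convergent gene pairs beside intervals, by interval length, with the longest class at the top and the number of intervals at the right. The convergent share was between 11.3 and 13.3% in the 3 classes of 10 kb or more, between 16.3 and 18.8% in the classes of 0.2 to 10 kb and 33.3% in the shortest.

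The 214 intervals were bounded by 413 genes, of which 398 flanked 1 interval and 15 flanked 2. Of these, 412 were protein-coding and 1 was a ribosomal RNA (rRNA) gene (NCU15821, at the edge of the LG V array). In size they resembled other genes. Median coding length was 1248 bp beside the intervals and 1266 bp in the 9318 other protein-coding genes. Median gene span was 2128.5 and 2129 bp. Single-exon genes made up 15.3% of the flanking genes and 18.6% of the others, and genes with several transcripts 9.95% and 9.2%. A RefSeq symbol was given for 10.7% of flanking genes and 11.5% of the others.

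Shares further apart concerned annotation. No untranslated region was annotated for 23.1% of flanking genes, against 16.7% of the others, and a number of NCU10000 or above was carried by 14.8% against 9.59%. Numbers just above NCU10000 also follow each other in places, such as NCU10001 to NCU10005 on LG III, so this limit does not mark the end of ordered numbers. How much of the difference such genes make was not tested. Coding sequences under 300 bp made up 4.61% and 3.4%. Where the 5′ end of a gene faced a long interval, 77.0% of edges had an annotated 5′ untranslated region, against 70.8% at intervals of 1 to 10 kb. For 3′ ends these shares were 67.5 and 68.8%. A gene without untranslated records makes an interval longer than it would otherwise be. Beyond the flanking gene, the next interval was usually short: where it was under 10 kb, its median was 843.5 bp, against 892 bp beyond genes at intervals of 1 to 10 kb. That next interval was itself of 10 kb or more at 32 of 428 edges (7.48%), against 2.5%.

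Among the properties compared here, locus numbers set long and short intervals furthest apart. NCU numbers of neighboring genes mostly follow each other, and the number was not used by the rule. Over 8768 pairs of consecutive genes numbered below NCU10000, the numbers differed by more than 100 in 94 pairs (1.07%). Such breaks in number order lay at a long interval in 89 of the 94 (94.7%), although only 199 of all pairs (2.27%) had a long interval between them. The 5 breaks elsewhere lay between genes 3616 to 9371 bp apart, on LG I (NCU08121 and NCU07509), LG V (NCU09556 and NCU01480), LG VI (NCU07062 and NCU09968, and NCU09969 and NCU07061) and LG VII (NCU04528 and NCU06170). On LG II, LG III and LG IV every break lay at a long interval, 10, 11 and 16 of them.

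Seen from the intervals, 100 of 214 (46.7%) lay at a break, 111 lay between genes in number order and 3 had no gene numbered below NCU10000 on one side. Steps were taken between the nearest genes numbered below NCU10000, so 1 break could mark 2 intervals with higher-numbered genes between them. The 100 intervals shared 89 breaks. An example is the 10685 bp on LG I between NCU10006 and acu-9 (NCU10007), counted at a break though its own flanks have consecutive numbers. Length separated intervals at a break from those in order: 22 intervals of 10 to 20 kb were at a break and 91 in order, against 61 and 14 at 20 to 50 kb and 17 and 6 at 50 kb or more. Median length was 28.7 kb at a break and 13.7 kb in order, and intervals at a break held 4.28 Mb, 62.6% of the gene-free length. Where both flanking genes were numbered below NCU10000, the step was over 100 at 59 of 151 long intervals (39.1%), against 2 of 2881 intervals of 1 to 10 kb (0.0694%). The longest interval of all, on LG VII, was in order, with a step of 12, as were both intervals of the LG IV main block, with steps of 11 and 9. Strand shares were alike in both kinds, with 12.0% convergent at a break and 12.6% in order. Whether the bases at a break are resolved sequence or a gap between assembled pieces was not tested.

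**Figure D5:**
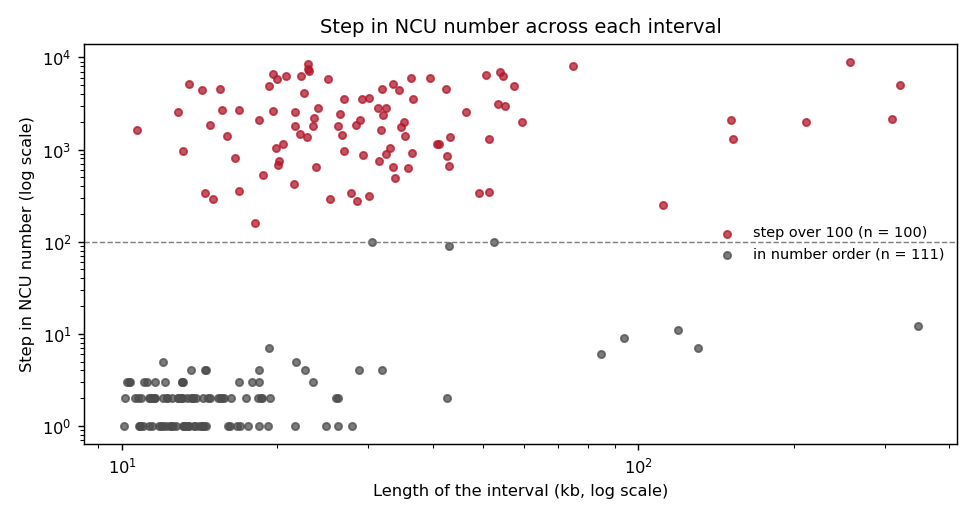
Step in NCU number across each interval (log scale, between the nearest genes numbered below NCU10000 on both sides) against its length in kb (log scale), for the 211 intervals with such genes; red points are steps over 100 (n = 100) and gray points those in number order (n = 111), with a dashed line at 100. Intervals in order lay mostly below 20 kb, and those at a break had a median of 28.7 kb.

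The annotation of nc14 leaves out most short RNA genes, so gene-free means free of annotated genes in this file. In the RefSeq table of NC12, from which only the order of neighbors was taken, both flanking genes were also neighbors, apart from such short genes, at 211 of the 214 intervals. The exceptions were the interval beside pks-1 on LG VI, that beside the rRNA array on LG V and that between NCU10889 and NCU00911 on LG I. A further gene lay between them at 36 (17.1%), against 12.2% of intervals of 1 to 10 kb, and 175 held none. These were 20 transfer RNA (tRNA) genes in 18 intervals, 21 noncoding RNA genes in 19, 6 tRNA pseudogenes in 4 and 1 ribosomal RNA gene. Per Mb, the long intervals held 3.08 tRNA and 3.23 noncoding RNA genes, against 30.6 and 16.1 in intervals of 1 to 10 kb, so they were sparse in short genes as well as in protein-coding ones.

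Transfer RNA genes occurred in each size class, 13 in intervals of 10 to 20 kb, 4 at 20 to 50 kb and 3 at 50 kb or more. The 16 noncoding RNA genes in intervals of 10 to 20 kb and the 5 in those of 20 to 50 kb were all of them, since the 24 intervals of 50 kb or more held 0. Those 24 held all 6 tRNA pseudogenes, in main blocks of LG III (1), LG IV (1), LG V (2) and LG VII (2), of 16 on the LGs of NC12. Intervals at a break in number order held a noncoding RNA gene in 2 of 100 cases, and those in order in 17 of 111. The fullest interval was the 11567 bp between bdp-1 and cre-1, the carbon catabolite repressor gene, on LG IV, with 4 further genes. It was singled out after its values were seen.

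Of the 428 interval edges, 45 were formed by 44 genes with a RefSeq symbol, and at 28 of them (62.2%) the 5′ end faced the interval. The 15 genes with a symbol beside the longest intervals were spread over all 7 LGs. Those with the 3′ end facing were pks-1 (310685 bp, LG VI), gh61-6 (59401 bp, LG II), pho-3, which encodes a repressible acid phosphatase (51383 bp, LG IV), fsd-1, a regulator of female sexual development (31948 bp, LG IV), and nkin-2, a kinesin gene (31297 bp, LG V). The other 10 had their start toward the interval. They were fi (55130 bp, LG IV), the Round spore gene Rsp (50670 bp, LG I), the methionine gene met-8 (49041 bp, LG III), the polyketide synthase gene pks-4 (40799 bp, LG VII), cys-16 (35825 bp, LG I), acu-6, encoding phosphoenolpyruvate carboxykinase (34412 bp, LG VI), al-3, encoding geranylgeranyl pyrophosphate synthase of carotenoid synthesis (33473 bp, LG V), tob38, whose product acts in sorting proteins into the mitochondrial outer membrane (27885 bp, LG V), the opsin gene nop-1 (27790 bp, LG VII) and mdk-1 (26700 bp, LG III).

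Another 26 of the 45 edges lay at intervals of 10 to 20 kb, and 7 of their genes are given here as examples chosen after their values were seen, with no theme tested. The starts of csn-1, a COP9 signalosome subunit gene (18616 bp, LG III), sah-1, a regulator of aerial hyphae (17383 bp, LG V), vib-1, a transcription factor of heterokaryon incompatibility (13612 bp, LG V), csp-1, a transcription factor of conidial separation (11583 bp, LG I), and xlr-1, the regulator of xylan degradation (10736 bp, LG IV), faced an interval. The 3′ ends of the pheromone receptor gene pre-1 (14537 bp, LG III) and of Bml, the beta-tubulin gene (14461 bp, LG VI), did so.

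Of 20 symbols for the machinery that forms silent chromatin, 12 were paired with a gene, among them dim-2, dim-5, hpo and set-7, and 0 of these 12 flanked a long interval. The other symbols were not paired, so their genes were not looked up. Of 4 kinetochore and cohesin symbols only hH3v, which encodes CenH3, was paired, and it flanked none. The 3 telomere symbols were not paired. One of the unpaired symbols is npf, which is thought to be another name of cac-3 (NCU06679), a gene for a histone-binding chromatin assembly factor subunit. The start of cac-3 faced an interval of 14547 bp on LG V, so that 1 listed gene probably did flank a long interval. The lists are too short for a share to be read against the 413 of 9866 genes that flanked an interval.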

How the data were processed

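Samples were in situ Hi-C libraries of wild type Neurospora. The file used is the gene annotation that the authors deposited, which lists feature starts and ends as bp positions on nc14, not normalized, and 0 of its columns are per-sample values. The authors placed supercontigs into LG I and LG V; how gene models were moved was not given in the sources used here. Gene spans were merged and intervals of at least 10000 bp taken in Python 3.11.15 (numpy 2.4.6, pandas 2.3.3, scipy 1.17.1, matplotlib 3.10.9). Tested on simulated data of 300 genes per LG, the code recovered 14000 of 14000 planted intervals. Simulated neighbors overlapped only slightly and none lay inside another, so larger overlaps and nested genes were not tried. Symbols, gene types and neighbor order came from the RefSeq table of NC12; no NC12 position was used. Base composition and contacts were not analysed here. Members, gene lists and size classes were chosen with earlier results of these data known. By rule, the text names genes beside intervals of 100 kb or more, genes alone between intervals of which 1 reached 50 kb, the 15 symbol-bearing genes beside the longest intervals, listed genes and the 5 intervals on each side of 10000 bp. Alternatives were other minimum lengths (5000 and 20000 bp), protein-coding genes or genes of 300 bp or more alone, coding sequence alone, displaced genes or the LG V array left out, other block rules, and steps over 50 or 1000.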

Additional observations from a re-analysis of the deposited data

How the results depend on the processing

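Of 100 alternative values of 13 results, 87 stayed within 1.5 times the count, or within the 95% interval of the share or median, as reported. Some of the 87 could not differ, so the tally overstates stability. The number of breaks in number order is counted without the intervals and was 94 at each minimum length. The longest block of LG I, run as another block rule, is the block already used. The other 13 came from the minimum length or the step that makes a break. At 5000 bp there were 533 intervals with a median of 8317 bp, stretches with a median of 41330 bp, 450 blocks, 108 intervals with a further gene in NC12 and 18.8% of intervals at a break in number order. At 20000 bp these values were 99, 32021 bp, 228981 bp, 92, 13 and 78.8%. Total length was 8996348 bp at 5000 bp and 5204654 bp at 20000 bp, against 6840531 bp as reported. Both values are among the 87 because they lie within 1.5 times the reported one, yet the total also depends on the limit. The counts and medians follow from taking more or fewer intervals. The share at a break rose with the minimum length because breaks lay more often at longer intervals, so the reported 46.7% depends on the limit of 10000 bp. A step over 1000 put 33.6% of intervals at a break, and 62 of 66 such breaks lay at a long interval. Intervals between coding sequences alone numbered 237, with 12.7% convergent. The convergent share was 14.6% at a minimum of 5000 bp and 13.1% at 20000 bp, against 12.1% as reported. Alternatives on strand and number order were added after seeing the data. The composition of promoters was not run, because no sequence was given. No paired analysis was possible because a single annotation serves every sample. Depth does not limit these values; the completeness of the annotation and the assembly does.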
